A study of Mus musculus with 23 samples.

Results

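Macrophages taken from a hydrogel implant 28 days after surgery were compared with macrophages taken 2 days after surgery, by RNA sequencing of sorted cells. The comparison uses every library that the labels give for these groups, replicates A, B and C at each time, which is 6 of the 23 libraries in the series. All of these mice were wildtype C57BL/6J, and each carried a poly(ethylene glycol) (PEG) hydrogel, a synthetic water-swollen polymer network, placed under the skin. The cells at both times came from explanted hydrogel and tissue digested with Liberase TM and are described as macrophages positive for Cx3cr1, the fractalkine receptor, and low for Ly6C, a surface protein of inflammatory monocytes. The other libraries are macrophages at day 14 (n = 3), macrophages from subcutaneous tissue of C57BL/6J mice with no implant (n = 2), and Cx3cr1-positive, Ly6C-high monocytes at days 2, 14 and 28 and in controls (n = 3 each). The design calls the replicates biological, but whether a replicate is 1 mouse or a pool, and how old and of which sex the mice were, is not stated in the labels. P-values measure only the spread between these samples. Libraries are named by day and letter, such as day 28 C, and a letter is not known to link libraries of different days.

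Implanted materials are met first by neutrophils and by blood monocytes that turn into macrophages, and the macrophages then remain at the surface for as long as the material does. There they can fuse into foreign body giant cells, which share much of their machinery with osteoclasts, the bone-resorbing cells of the same lineage. Late in this foreign body response, fibroblasts wall the implant off in a collagen capsule, and transforming growth factor beta (TGF-β) is a main signal between macrophages and fibroblasts. Early macrophages are known for inflammatory cytokines and chemokines, and older tissue macrophages for lysosomal digestion, uptake of dead cells and antigen presentation.

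The 6 libraries held between 9303153 counts (day 2 C) and 29747906 counts (day 28 C), and the others held 23074988 or more. Spearman's rank correlation between libraries over the tested genes was 0.916 to 0.962 within a group and 0.906 to 0.938 between the groups. The 11 macrophage markers were all detected, with a summed level of 62600 to 69200 CPM (counts scaled by library total and TMM factor) at day 2 and 78700 to 95100 CPM at day 28. Most of that sum was lysozyme, Lyz2, which the 11 classical monocyte markers share, and those summed to 58500 to 67000 and 74200 to 89800 CPM. Without Lyz2 the macrophage markers summed to 9190 to 11000 CPM at day 2 and 10600 to 12500 CPM at day 28, and the classical monocyte markers to 5630 to 6950 and 5630 to 8430 CPM, so both overlapped between the times. Among the macrophage markers Adgre1, which encodes F4/80, had 549, 458 and 603 CPM at day 2 and 758, 746 and 555 CPM at day 28. The sort gene Cx3cr1 had 25.6, 28.6 and 31 CPM at day 2 and 169, 226 and 90.1 CPM at day 28. Cx3cr1 rose by 2.51 ± 0.38 on the log2 scale, with no overlap between the times (adjusted p = 0.00109). Ly6c2, which encodes the Ly6C of the gate, had 64.9, 36.1 and 100.5 CPM at day 2 and 5.49, 15 and 62.4 CPM at day 28. Ly6c2 gave a log2 fold change of -1.28 ± 0.63, with overlap between the times (adjusted p = 0.227).

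Neutrophil markers and a transcript length trend differed between day 2 and day 28 in these libraries. The 15 neutrophil markers summed to 3460 to 7180 CPM at day 2, 177 to 370 CPM at day 14, 210 to 362 CPM at day 28 and 195 to 214 CPM in the controls. At day 28 the neutrophil surface marker Ly6g was at 0 in all 3 libraries, and at day 2 it was at 20.6, 9.3 and 9.9 CPM. Erythroid and platelet markers summed to 517 to 1360 CPM at day 2 and 77.5 to 258 CPM at day 28, but without Ppbp, the only called member of the 8, the sums overlapped at 65.2 to 719 and 57 to 192 CPM. Summed T and NK cell markers (52.2 to 251 against 104 to 155 CPM) and B cell markers (31.2 to 109 against 68.5 to 128 CPM) overlapped between the times, as did summed fibroblast markers (17.6 to 75 against 49.9 to 142 CPM). The sums do not show single members. Median log2 fold changes were -3.75 for 13 T and NK cell markers, -3.42 for 7 B cell markers and 1.64 for 15 fibroblast markers. Of the T and NK cell markers, 6 had all day 28 libraries below day 2 and 3 had all above. Of the B cell markers, 2 had all below and 0 all above. For transcript length, relative to the average library, log2 CPM changed with each doubling of exon length by -0.246, -0.174 and -0.253 at day 2 and by 0.161, 0.185 and 0.0471 at day 28. At day 14 the slopes were 0.0289 (A), -0.0116 (B) and -0.269 (C), so they differed within a day as well. The part of these features in the changes below was not tested, except that the main test was repeated with an offset that removes each library's length trend. In sorted bulk samples, fewer cells of a type and less RNA per cell cannot be told apart.

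**Figure D1:**
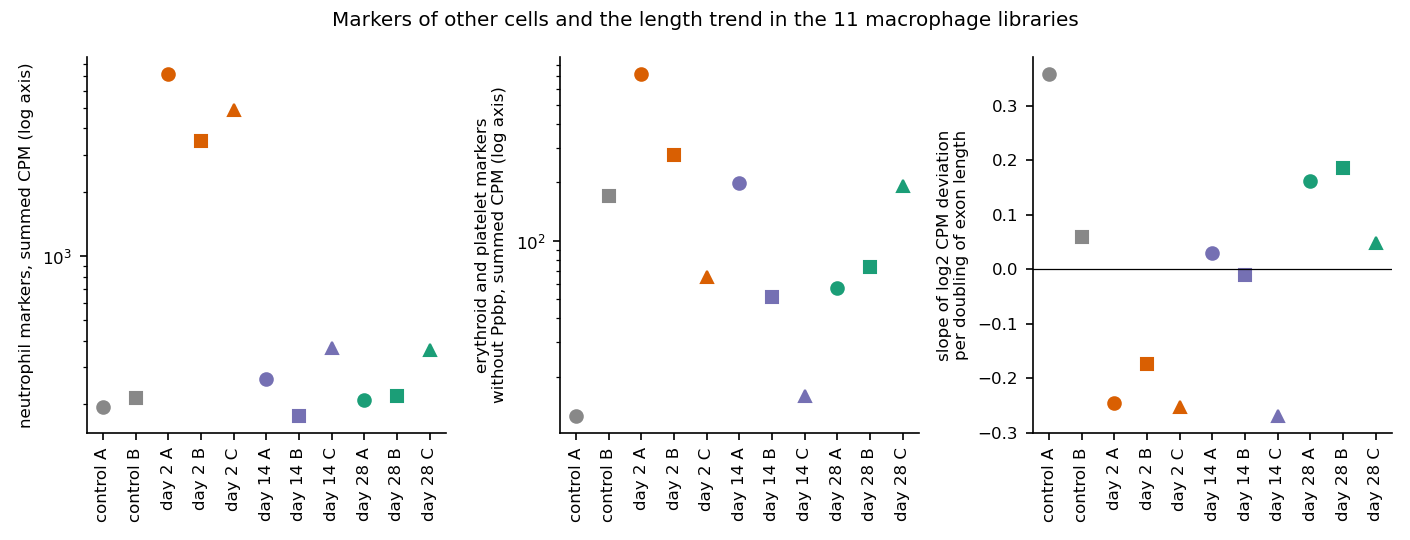
Summed CPM of neutrophil markers, summed CPM of erythroid and platelet markers without Ppbp, and the change of log2 CPM per doubling of exon length, each for the 11 macrophage libraries by day and replicate. The day 2 libraries are the 3 with neutrophil marker sums of 3460 CPM or more. Their length slopes are all below 0, as are those of day 14 B (-0.0116) and day 14 C (-0.269).

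Of 16260 genes tested with edgeR's quasi-likelihood test, 692 (4.26%) passed a Benjamini-Hochberg adjusted p under 0.05. Of these 371 (2.28%) were higher and 321 (1.97%) lower at day 28, and 15568 did not pass. The median log2 fold change over all tested genes was 0.0407. Without regard to the test, 2134 genes (13.1%) had all 3 day 28 libraries above all 3 day 2 libraries and 2484 (15.3%) had all below, and 358 of the higher and 318 of the lower calls were of this kind. Called genes higher at day 28 had a median exon length of 5803 bases and called genes lower at day 28 of 2036 bases, against 3691 bases for all tested genes. With the length offset, 280 genes were higher and 210 lower, of which 225 and 183 were calls of the main test.

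The number of calls depended on single libraries. Leaving out day 2 A, B or C left 71, 67 and 118 genes higher and 95, 148 and 135 lower. Leaving out day 28 A or B left 88 and 73 higher and 77 and 64 lower, and leaving out day 28 C gave 724 higher and 509 lower. For that reason each gene list below with 2 or more members called in a direction is followed by its count of calls in that direction without day 2 A, B and C and day 28 A, B and C, in that order. A list with 1 call in a direction has only the values of that gene. List counts are to be read against the shares of all tested genes. Those were 2.28% called higher and 1.97% called lower, and 13.1% and 15.3% without overlap in these directions. Lists with few calls can lie near these shares. Where a gene's call ended, the libraries whose removal ended it follow its adjusted p, with the largest adjusted p among the 6 removals. Where the length offset ended it, that adjusted p follows as well. Of 131 called genes named by the rule given under the processing, 43 passed in all 16 alternatives run and 100 passed with the length offset. None changed direction.

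**Figure D2:**
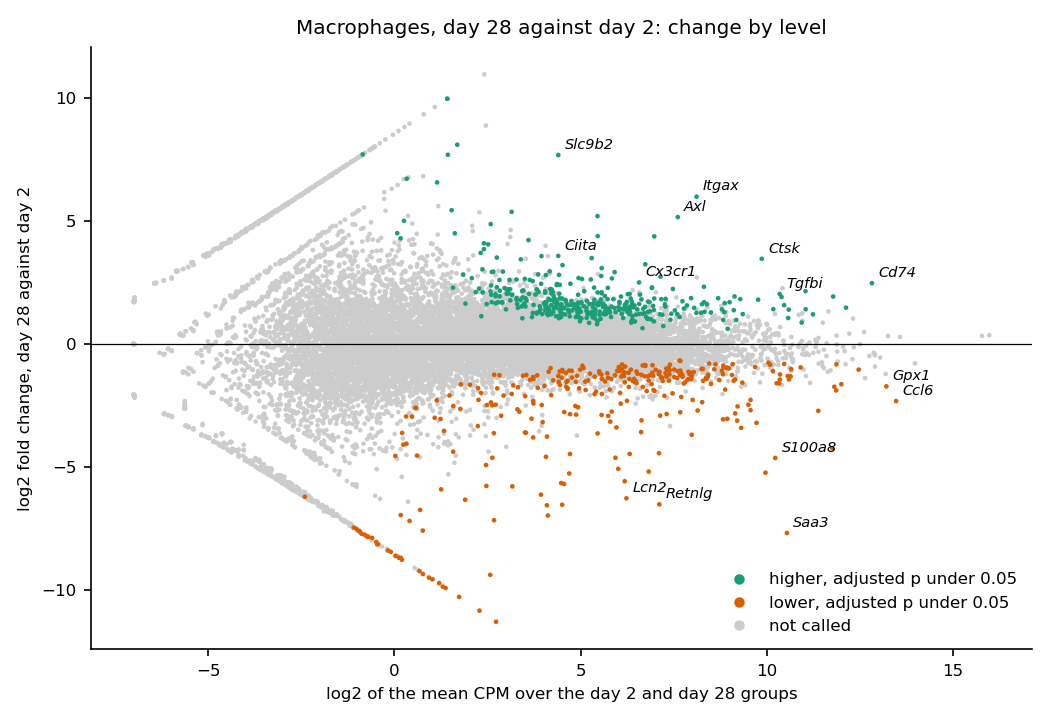
Log2 fold change of each tested gene, day 28 against day 2, plotted against the log2 mean CPM of both groups. Green points are the 371 genes higher at day 28, orange points the 321 genes lower, and grey points the 15568 genes that did not pass.

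The 12 largest rises included genes of adhesion, uptake of dying cells and signalling at the membrane. Itgax, which encodes the integrin CD11c, had 9.33, 2.26 and 14.5 CPM at day 2 and 1041, 518 and 78.6 CPM at day 28. Itgax (ENSMUSG00000030789) lies at chr7:128129547-128150657 in GRCm38. Itgax rose by 6.00 ± 0.80 on the log2 scale, with no overlap between the times (adjusted p = 0.000341). Its day 28 libraries spread over more than 1 order of magnitude, with C lowest. Axl, a receptor tyrosine kinase that recognises dying cells, had 8.57, 4.4 and 19.3 CPM at day 2 and 484, 478 and 178 CPM at day 28 (ENSMUSG00000002602, chr7:25757273-25788705). Axl rose by 5.17 ± 0.62 on the log2 scale, with every day 28 library above day 2 (adjusted p = 0.000143). Slc9b2, which encodes a sodium-proton exchanger known from osteoclasts, had 0.521, 0 and 0 CPM at day 2 and 85.3, 27.9 and 13 CPM at day 28. Slc9b2 rose by 7.69 ± 1.18 on the log2 scale, with no overlap between the times (adjusted p = 0.00164). It was at 0 in 2 day 2 libraries, and day 28 replicate A held the most.

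Cd276, which encodes the checkpoint protein B7-H3, had 1.85, 0.905 and 0.846 CPM at day 2 and 15.2, 26.6 and 27.3 CPM at day 28. Cd276 rose by 4.23 ± 0.51 on the log2 scale, with every day 28 library above day 2 (adjusted p = 0.000143). Olfml3, a secreted matrix protein, had 3.55, 3.58 and 4.95 CPM at day 2 and 56.7, 124 and 70.5 CPM at day 28. Olfml3 rose by 4.39 ± 0.51 on the log2 scale, with no overlap between the times (adjusted p = 0.000143). Rgs16, a brake on G protein signalling, had 0.379, 0.247 and 0.604 CPM at day 2 and 21.3, 7.73 and 5.75 CPM at day 28. Rgs16 rose by 4.88 ± 0.89 on the log2 scale, with every day 28 library above day 2 (adjusted p = 0.00678). Rnf180, a ubiquitin ligase, had 0.71, 0.7 and 0.483 CPM at day 2 and 5.96, 16 and 10.4 CPM at day 28. Rnf180 rose by 4.06 ± 0.70 on the log2 scale, with no overlap between the times (adjusted p = 0.00332). The other members of the 12 largest rises were the small GTPase gene Rhoj (log2 fold change 5.38 ± 1.13, adjusted p = 0.013, up to 0.0593 without day 2 A or day 28 A), the CD30 ligand gene Tnfsf8 (log2 fold change 5.21 ± 1.42, adjusted p = 0.0434, up to 0.162 without day 2 A, B or C or day 28 A or B and 0.0524 with the length offset), the epoxide hydrolase gene Ephx1 (log2 fold change 4.38 ± 0.92, adjusted p = 0.0125, up to 0.0701 without day 2 A or B or day 28 A), the adaptor gene Apbb2 (log2 fold change 3.58 ± 0.93, adjusted p = 0.037, up to 0.13 without day 2 A, B or C or day 28 A or B and 0.0679 with the length offset) and Ciita, described with antigen presentation below. In Rhoj, Tnfsf8, Ephx1 and Apbb2 the lowest day 28 library was C.

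**Figure D3:**
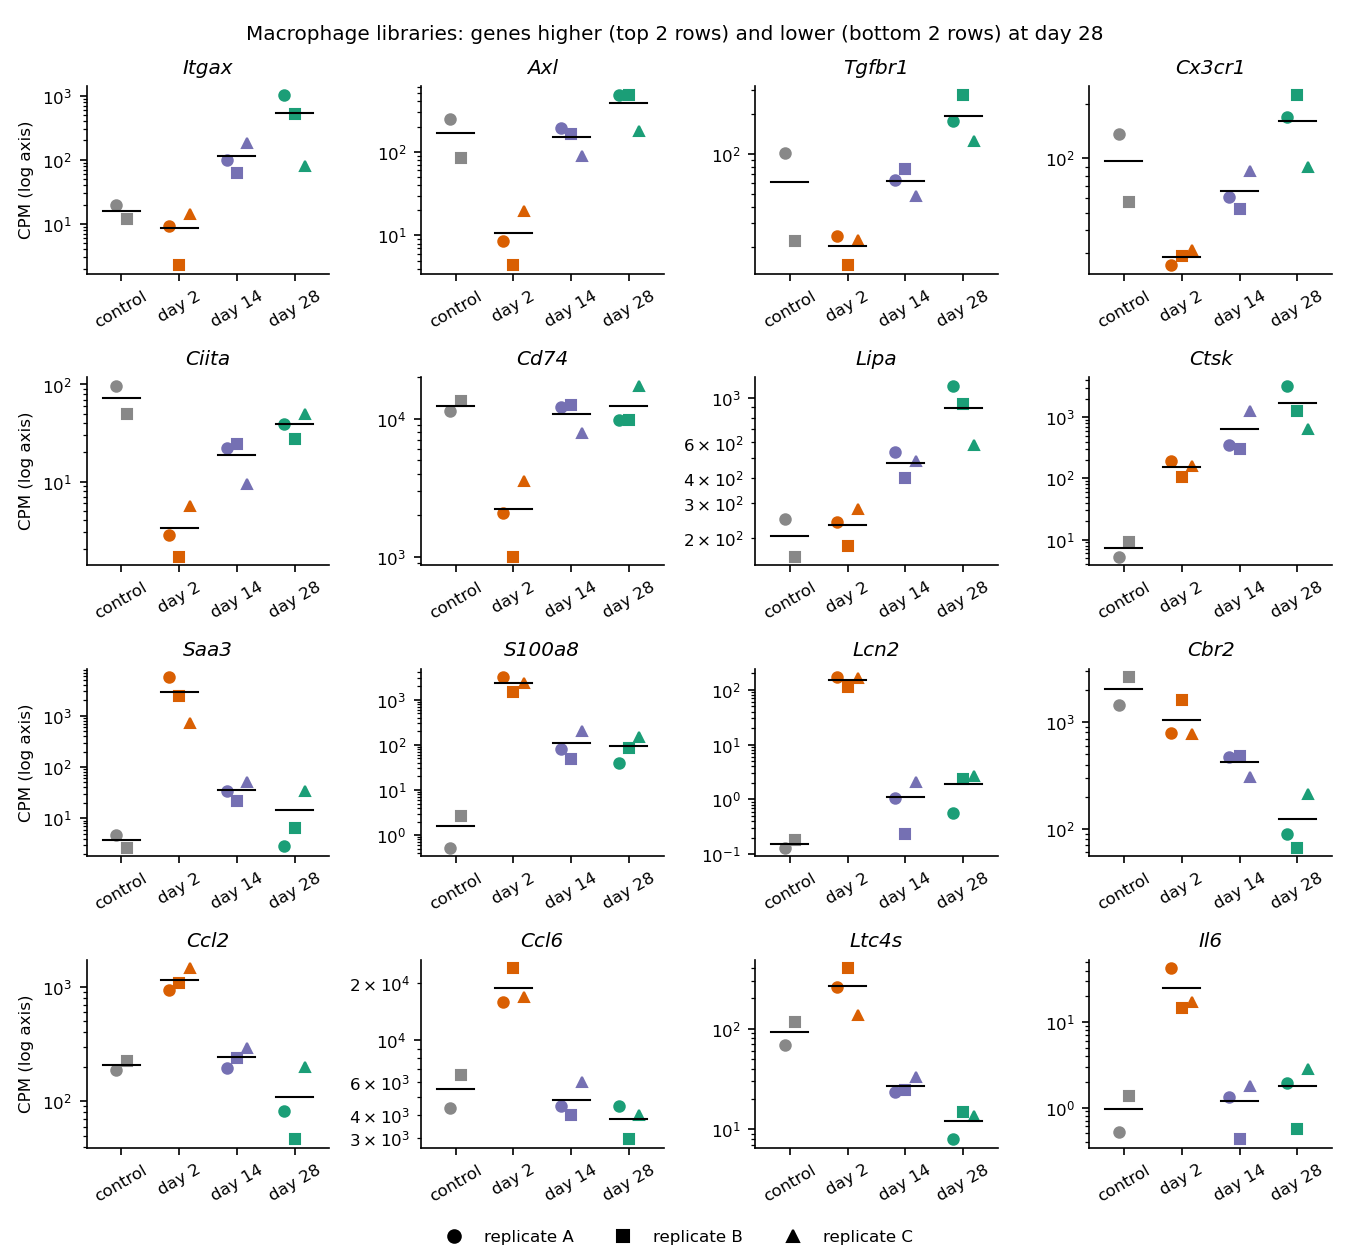
CPM on a log axis in the control, day 2, day 14 and day 28 macrophage libraries for 8 genes higher at day 28 (top) and 8 genes lower (bottom), 1 point per library with its replicate letter as the marker. For Itgax, the day 28 points run from 78.6 to 1041 CPM and the day 2 points from 2.26 to 14.5 CPM.

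Genes of lysosomal digestion and of the giant cell programme were called in 1 direction, higher at day 28. Of 53 genes tested in the lysosomal hydrolase list, 10 rose and none fell (median log2 fold change 0.446; 2, 2, 2, 2, 2 and 14 calls without each library), and in 24 of the 53 the day 28 libraries were all above day 2, against 13.1% of all tested genes. Lipa, the acid lipase that frees cholesterol inside lysosomes, had 238, 182 and 277 CPM at day 2 and 1154, 937 and 584 CPM at day 28. Lipa rose by 1.94 ± 0.34 on the log2 scale, with every day 28 library above day 2 (adjusted p = 0.00396). Ctsk, the collagen-cleaving protease of osteoclasts, had 196, 107 and 160.2 CPM at day 2 and 3256, 1240 and 637 CPM at day 28. Ctsk rose by 3.47 ± 0.80 on the log2 scale, with no overlap between the times (adjusted p = 0.0201, up to 0.105 without day 2 A, B or C or day 28 A). Its controls were at 5.29 and 9.05 CPM. The mannosidase genes Man2b1 (log2 fold change 1.70 ± 0.39, adjusted p = 0.0191, up to 0.0963 without day 2 A, B or C or day 28 A or B) and Manba (log2 fold change 1.72 ± 0.40, adjusted p = 0.0204, up to 0.103 without day 2 A or C or day 28 A or B) and the thioesterase gene Ppt2 (log2 fold change 1.13 ± 0.24, adjusted p = 0.0134, up to 0.0712 without day 2 B or day 28 B) also rose. The remaining hydrolase calls were Arsa, Gaa, Ids, Pla2g15 and Tpp1. The low controls of Ctsk were not shared by all of these genes. Controls of Lipa (249 and 161 CPM) and Ppt2 (12.2 and 12.2 CPM) were below every day 28 library. Controls of Man2b1 (805 and 624 CPM), Arsa (59 and 39.7 CPM) and Gaa (79.2 and 86.4 CPM) lay within the day 28 range. Of 18 subunits of the vacuolar proton pump that acidifies lysosomes, only Atp6v0a1 was called (log2 fold change 1.82 ± 0.47, adjusted p = 0.0356, up to 0.164 without day 2 A, B or C or day 28 A or B and 0.0532 with the length offset; list median 0.0833; 0, 0, 0, 0, 0 and 5 calls without each library).

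Of 29 giant cell fusion and osteoclast-like genes tested, 5 rose and none fell (median log2 fold change 0.871; 1, 1, 2, 1, 3 and 6 calls without each library), and 16 had no overlap in that direction, against 13.1% of all tested genes. Sirpa, a receptor for CD47 needed in fusion, had 277, 270.3 and 257 CPM at day 2 and 640.4, 738 and 607 CPM at day 28. Sirpa rose by 1.30 ± 0.23 on the log2 scale, with every day 28 library above day 2 (adjusted p = 0.00428). Dcstamp, which encodes the fusion protein DC-STAMP, had 6.87, 2.43 and 10.2 CPM at day 2 and 86.9, 64.9 and 64.7 CPM at day 28. Dcstamp rose by 3.50 ± 0.84 on the log2 scale, with no overlap between the times (adjusted p = 0.0254, up to 0.101 without day 2 A, B or C or day 28 A or B). Its 3 day 28 libraries were close to one another, while day 2 B was lowest of all. The tetraspanin gene Cd81 (log2 fold change 2.24 ± 0.46, adjusted p = 0.0111, up to 0.0857 without day 2 A or B or day 28 A) and Nfatc1, a master factor of osteoclasts (log2 fold change 1.28 ± 0.33, adjusted p = 0.0348, up to 0.123 without day 2 A, B or C or day 28 A or B and 0.0506 with the length offset), were called along with Ctsk. Acp5, which encodes the osteoclast phosphatase TRAP, had 144, 71 and 175 CPM at day 2 and 308, 325 and 288 CPM at day 28 and did not pass (log2 fold change 1.24 ± 0.37, adjusted p = 0.062), although its groups did not overlap. The partner fusion gene Ocstamp did not pass either (log2 fold change 2.38 ± 0.84, adjusted p = 0.105).

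Among 29 genes of lipid-associated macrophages, Itgax, Lipa and Pld3 (log2 fold change 1.22 ± 0.30, adjusted p = 0.03, up to 0.15 without day 2 A or B or day 28 A or B) rose and none fell (median 0.334; 2, 2, 3, 2, 2 and 4 calls without each library). For Pld3 the times overlapped, with day 28 C at 463 CPM and day 2 C at 470 CPM. Well-known members of that state, Spp1, Gpnmb and Trem2, did not pass. Spp1, which encodes osteopontin and was among the most abundant transcripts, had 62240, 30020 and 57230 CPM at day 2 and 89500, 50020 and 48970 CPM at day 28. Spp1 gave a log2 fold change of 0.33 ± 0.55, with overlap between the times (adjusted p = 0.757). Gpnmb, a lysosomal glycoprotein, had 508, 109 and 799.8 CPM at day 2 and 4239, 2047 and 559 CPM at day 28. Gpnmb gave a log2 fold change of 2.27 ± 0.79, with overlap between the times (adjusted p = 0.0989). Day 28 C lay within the day 2 range for Gpnmb, while day 28 A and B lay above it. Trem2, a lipid-sensing receptor, had a log2 fold change of 0.44 ± 0.41 (adjusted p = 0.554).

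**Figure D4:**
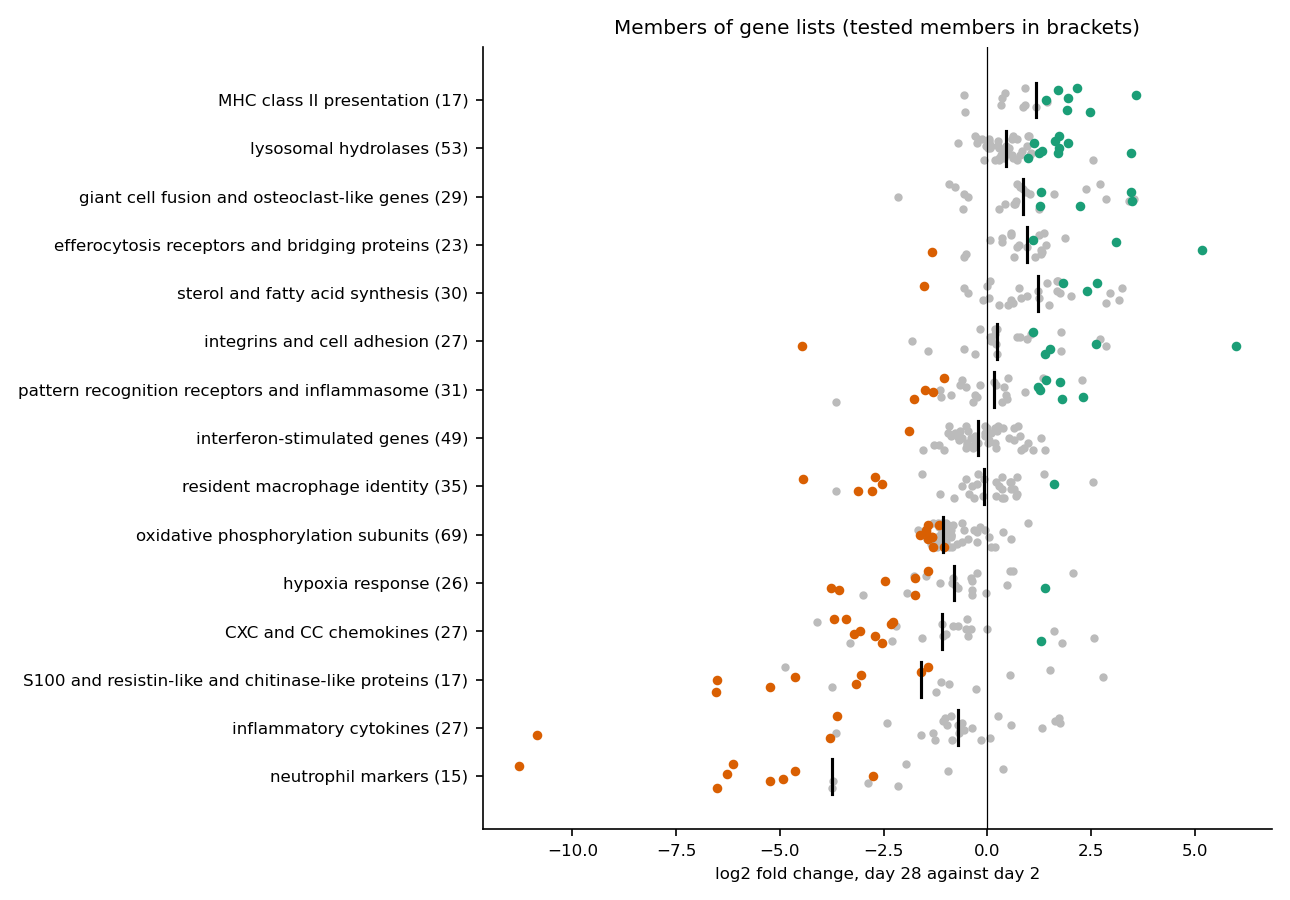
Log2 fold change, day 28 against day 2, of each tested member of 15 gene lists, 1 point per gene, with a black tick at each list's median and the number of tested members in brackets. The median of the 15 neutrophil markers is -3.74 and that of the 17 antigen presentation genes is 1.17.

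Antigen presentation on MHC class II had the largest share of members called higher of the 56 lists. These genes encode the paired chains that display peptides to helper T cells, the chaperones that load them, and the factors that switch them on. The promoters of the classical genes carry a conserved X box and Y box at fixed spacing, to which the RFX and NF-Y complexes bind and recruit the coactivator CIITA. The stretches below are 120 bases from 130 to 11 bases before the RefSeq start site (GRCm38.p6, gene strand). They are shown because all 3 genes were called and hold the arrangement marked by capitals. Capitals mark GNAAC, a core of the X box, and GATTGG, the Y box, with 26 or 27 bases between them.
H2-Aa: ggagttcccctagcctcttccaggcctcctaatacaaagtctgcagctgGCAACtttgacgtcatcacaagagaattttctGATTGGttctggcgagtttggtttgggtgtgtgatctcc
H2-Eb1: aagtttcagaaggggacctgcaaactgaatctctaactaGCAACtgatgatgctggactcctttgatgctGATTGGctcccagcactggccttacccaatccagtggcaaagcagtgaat
H2-DMb1: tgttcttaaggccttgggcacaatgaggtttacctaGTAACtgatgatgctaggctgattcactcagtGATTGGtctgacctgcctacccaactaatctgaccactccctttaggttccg
The H2-Aa stretch is chr17:34287834-34287953 on the minus strand, with GNAAC starting 81 and GATTGG 49 bases before the start site. The H2-Eb1 stretch is chr17:34305737-34305856 on the plus strand (91 and 60 bases), and the H2-DMb1 stretch is chr17:34153061-34153180 on the plus strand (94 and 62 bases). The arrangement, with 26 to 29 bases between the motifs on either strand, was settled on after these sequences were seen. It was present in the 250 bases before the start of 83 of 32851 promoters (0.253%) and of 42 of 11047 tested genes with a promoter entry (0.38%). Among the 17 list members tested, 12 had an entry and 5 held it, the others being H2-Eb2 and H2-Oa, which were not called. The called genes Cd74, Ciita, H2-Ab1 and H2-DMb2 had no match or no entry. A match is a description of the letters only.

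Of the 17 members tested, 7 rose and none fell (median log2 fold change 1.17; 3, 4, 8, 5, 6 and 7 calls without each library), and 10 had no overlap in that direction, against 13.1% of all tested genes. Cd74, the invariant chain that guards the peptide groove, had 2092, 1003 and 3538 CPM at day 2 and 9819, 9791 and 17360 CPM at day 28. Cd74 rose by 2.48 ± 0.39 on the log2 scale, with every day 28 library above day 2 (adjusted p = 0.00158). Ciita, the coactivator, had 2.79, 1.69 and 5.56 CPM at day 2 and 38.9, 27.8 and 50 CPM at day 28. Ciita rose by 3.59 ± 0.54 on the log2 scale, with no overlap between the times (adjusted p = 0.000942). In both, day 28 C was the highest library, and day 2 B was the lowest. The controls with no implant were within the day 28 range for Cd74, at 11410 and 13440 CPM, and at 96.9 and 49.7 CPM for Ciita. H2-DMb1, which encodes a chain of the peptide exchanger, had 142, 109 and 198 CPM at day 2 and 492, 366 and 605 CPM at day 28. H2-DMb1 rose by 1.71 ± 0.29 on the log2 scale, with every day 28 library above day 2 (adjusted p = 0.00343). The class II chain genes H2-Aa (log2 fold change 2.15 ± 0.45, adjusted p = 0.0132, up to 0.0579 without day 2 A or B) and H2-Eb1 (log2 fold change 1.92 ± 0.43, adjusted p = 0.0178, up to 0.076 without day 2 A or B) rose, as did H2-Ab1 and H2-DMb2, which lie outside the naming rule and were singled out after their values were seen. H2-Aa had 771, 289.8 and 1264 CPM at day 2 and 2730, 2484 and 5113 CPM at day 28, without overlap between the times. Day 28 C was highest of the day 28 libraries in 14 of the 17 members (82.4%), against 38.1% of all tested genes. Neither the summed dendritic cell markers (15.8 to 130 CPM at day 2, 37.5 to 129 CPM at day 28) nor the summed B cell markers separated the times. Within each day, however, the dendritic cell sum was lowest in B and highest in C. In the order A, B and C it was 51.4, 15.8 and 129.9 CPM at day 2. At day 28 it was 73.9, 37.5 and 128.8 CPM. The median log2 fold change of the dendritic cell markers was 0.746. The part of dendritic cell RNA in the class II genes was not tested. None of the 10 dendritic cell markers passed, and of the B cell markers only Igkc was called, lower.

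Receptors and bridging proteins of efferocytosis, the uptake of dying cells, were called mostly upward. Of 23 tested, Axl, Mfge8 and Itgb5 rose and Cd300lf fell (median log2 fold change 0.962, or 0.766 with genes of 3 or fewer counts at both times set to 0; 2, 2, 2, 2, 2 and 6 higher calls without each library). Mfge8, the bridge between phosphatidylserine and integrins, had 11.7, 7.7 and 10.5 CPM at day 2 and 135, 79.7 and 39.4 CPM at day 28. Mfge8 rose by 3.09 ± 0.58 on the log2 scale, with no overlap between the times (adjusted p = 0.00622). Its integrin partner Itgb5 rose (log2 fold change 1.09 ± 0.28, adjusted p = 0.0326, up to 0.121 without day 2 A, B or C or day 28 A or B), and the phosphatidylserine receptor gene Cd300lf fell (log2 fold change -1.32 ± 0.37, adjusted p = 0.0457, up to 0.18 without day 2 A, B or C or day 28 A or B). Mertk, the sister kinase of Axl, had 26.3, 51.8 and 29.1 CPM at day 2 and 119.9, 109 and 50.1 CPM at day 28. Mertk gave a log2 fold change of 1.38 ± 0.52, with overlap between the times (adjusted p = 0.127). Day 28 C fell just below the highest day 2 library there, and A and B were above it.

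In the TGF-β and scarring genes, the receptor and a matrix target rose while the ligand gene did not pass. Tgfbr1, which encodes the type I TGF-β receptor, had 24.1, 14.5 and 22.5 CPM at day 2 and 176, 279 and 124 CPM at day 28. Tgfbr1 rose by 3.25 ± 0.46 on the log2 scale, with no overlap between the times (adjusted p = 0.000603). Tgfbi, a matrix protein named for its induction by TGF-β, had 526, 442 and 564 CPM at day 2 and 1881, 2383 and 2017 CPM at day 28. Tgfbi rose by 2.04 ± 0.34 on the log2 scale, with every day 28 library above day 2 (adjusted p = 0.00231). Both passed without each library in turn and were the only calls among 30 profibrotic mediators and growth factors (median 0.228). Tgfb1 itself had 51.5, 44.9 and 40.6 CPM at day 2 and 18.3, 35.9 and 137 CPM at day 28, with day 28 A lowest and day 28 C highest of all 6. Tgfb1 gave a log2 fold change of 0.48 ± 0.59, with overlap between the times (adjusted p = 0.657). Among 30 matrix proteases tested (median 0.673; 0, 0, 1, 0, 1 and 2 higher and 0, 1, 1, 0, 0 and 3 lower calls without each library), Mmp19 (log2 fold change 1.62 ± 0.35, adjusted p = 0.0158, up to 0.0759 without day 2 A or B or day 28 A or B) and Ctsk rose, and the neutrophil collagenase gene Mmp8 (log2 fold change -2.74 ± 0.68, adjusted p = 0.0288, up to 0.126 without day 2 A, B or C or day 28 A or B) and the protease inhibitor gene Serpinb2 (log2 fold change -5.07 ± 1.14, adjusted p = 0.0179, up to 0.0947 without day 2 A or day 28 A or B) fell.

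Of 27 integrin and adhesion genes, 5 rose and 1 fell (median log2 fold change 0.239; 4, 2, 3, 2, 3 and 7 higher calls without each library). Alcam, a homophilic adhesion molecule, had 46.9, 33.7 and 48.3 CPM at day 2 and 119.6, 130.1 and 86.6 CPM at day 28. Alcam rose by 1.38 ± 0.24 on the log2 scale, with every day 28 library above day 2 (adjusted p = 0.00396). Itga4 (log2 fold change 1.51 ± 0.34, adjusted p = 0.019, up to 0.103 without day 2 B or C or day 28 A or B), Itgal (log2 fold change 2.63 ± 0.55, adjusted p = 0.0131, up to 0.0705 without day 2 A or B or day 28 A), Itgax and Itgb5 were the other rises. Of the 11 classical monocyte markers 4 fell (3, 3, 3, 2, 2 and 5 calls without each library), among them Hp (log2 fold change -2.82 ± 0.38, adjusted p = 0.000341), Chil3 and Plac8 (log2 fold change -1.87 ± 0.52, adjusted p = 0.0467, up to 0.185 without day 2 A, B or C or day 28 A or B and 0.111 with the length offset), and none rose.

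Lipid genes gave few calls with wide spread at day 28. Of 30 sterol and fatty acid synthesis genes, 3 rose and 1 fell (median log2 fold change 1.23; 1, 1, 2, 1, 2 and 7 higher calls without each library). Dhcr7, the last enzyme of cholesterol synthesis, had 2.6, 3.99 and 2.66 CPM at day 2 and 28.5, 17.8 and 12.4 CPM at day 28. Dhcr7 rose by 2.65 ± 0.50 on the log2 scale, with no overlap between the times (adjusted p = 0.00676). Cyp51 had 4.69, 5.43 and 9.66 CPM at day 2 and 72.5, 18.3 and 12.6 CPM at day 28, so day 28 A stood well above B and C. Cyp51 rose by 2.40 ± 0.53 on the log2 scale, with every day 28 library above day 2 (adjusted p = 0.0172, up to 0.141 without day 2 A or B or day 28 A). The decarboxylase gene Mvd fell (log2 fold change -1.52 ± 0.31, adjusted p = 0.00983, up to 0.0581 without day 2 B or day 28 B and 0.0884 with the length offset). Among 17 scavenger receptors, Olr1 (log2 fold change 1.23 ± 0.30, adjusted p = 0.0281, up to 0.107 without day 2 A, B or C or day 28 B), Colec12 (log2 fold change 2.81 ± 0.74, adjusted p = 0.0377, up to 0.143 without day 2 A, B or C or day 28 A or B and 0.062 with the length offset) and Cxcl16, which is both a scavenger and a chemokine (log2 fold change 1.29 ± 0.31, adjusted p = 0.0268, up to 0.141 without day 2 A, B or C or day 28 A or B), rose and none fell (median 0.562, or 0 with genes of 3 or fewer counts at both times set to 0; 0, 0, 0, 1, 0 and 4 calls without each library). None of 26 fatty acid uptake and oxidation genes was called.

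Sensors of microbes and damage moved both ways. Of 31 tested, 6 rose and 4 fell (median log2 fold change 0.171; 3, 2, 4, 3, 4 and 4 higher and 1, 2, 2, 2, 1 and 4 lower calls without each library). Clec7a, the fungal glucan receptor dectin-1, had 562, 170 and 431 CPM at day 2 and 1322, 1013 and 1736 CPM at day 28. Clec7a rose by 1.81 ± 0.32 on the log2 scale, with no overlap between the times (adjusted p = 0.00434). Tlr8, an endosomal RNA sensor, had 16.3, 13.1 and 12.2 CPM at day 2 and 89.4, 73.3 and 42.4 CPM at day 28. Tlr8 rose by 2.30 ± 0.44 on the log2 scale, with every day 28 library above day 2 (adjusted p = 0.00678). Clec4n, dectin-2, also rose (log2 fold change 1.42 ± 0.33, adjusted p = 0.0213, up to 0.0964 without day 2 B or C or day 28 C). Pycard, the adaptor that assembles inflammasomes, had 228, 219 and 206 CPM at day 2 and 69.6, 76.9 and 85.7 CPM at day 28. Pycard fell by 1.49 ± 0.27 on the log2 scale, with no overlap between the times (adjusted p = 0.00472). Cd14, the endotoxin co-receptor, had 10220, 5978 and 6694 CPM at day 2 and 4437, 3557 and 3153 CPM at day 28. Cd14 fell by 1.04 ± 0.23 on the log2 scale, with every day 28 library below day 2 (adjusted p = 0.0172, up to 0.129 without day 2 A or day 28 B and 0.37 with the length offset). The other calls were Clec5a, Tlr7 and Tlr13 upward and Ly96 and Trem3 downward.

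Of 33 TNF and interleukin receptor genes, 4 rose and 1 fell (median log2 fold change 0.218; 0, 0, 0, 0, 0 and 3 higher calls without each library). Il1r2, the decoy receptor that soaks up interleukin-1, had 309, 184 and 252 CPM at day 2 and 12.7, 17.5 and 68.8 CPM at day 28. Il1r2 fell by 2.91 ± 0.49 on the log2 scale, with no overlap between the times (adjusted p = 0.00275). The TNF receptor 2 gene Tnfrsf1b (log2 fold change 1.83 ± 0.41, adjusted p = 0.0172, up to 0.0859 without day 2 A, B or C or day 28 A or B), the M-CSF receptor gene Csf1r (log2 fold change 1.58 ± 0.40, adjusted p = 0.0318, up to 0.112 without day 2 A, B or C or day 28 A or B), the GM-CSF receptor beta chain gene Csf2rb (log2 fold change 1.22 ± 0.34, adjusted p = 0.0467, up to 0.141 without day 2 A, B or C or day 28 A, B or C and 0.0695 with the length offset) and Il10ra (log2 fold change 1.52 ± 0.40, adjusted p = 0.0359, up to 0.126 without day 2 A, B or C or day 28 A or B) rose. Csf1r had 714, 756 and 653 CPM at day 2 and 2400, 2435 and 1536 CPM at day 28, and its day 28 C library was the lowest of the 3.

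The 12 largest falls included acute-phase, antimicrobial and granule genes. Saa3, an acute-phase serum amyloid gene, had 5724, 2464 and 720.4 CPM at day 2 and 2.89, 6.57 and 33.8 CPM at day 28. Saa3 (ENSMUSG00000040026) lies at chr7:46711998-46715700 in GRCm38. Saa3 fell by 7.68 ± 1.06 on the log2 scale, with every day 28 library below day 2 (adjusted p = 0.000418). Lcn2, which encodes the iron-chelator-binding protein lipocalin 2, had 170.5, 112 and 162 CPM at day 2 and 0.568, 2.4 and 2.72 CPM at day 28 (ENSMUSG00000026822, chr2:32384633-32388252). Lcn2 fell by 6.27 ± 0.82 on the log2 scale, with no overlap between the times (adjusted p = 0.000341). Chil1, a chitinase-like protein gene, had 50.5, 41.1 and 43.1 CPM at day 2 and 0.0473, 0.0706 and 1.27 CPM at day 28. Chil1 fell by 6.53 ± 0.97 on the log2 scale, with every day 28 library below day 2 (adjusted p = 0.000902). Wfdc21, an antiprotease-like gene, had 229, 99.7 and 99.2 CPM at day 2 and 0.662, 2.19 and 6.02 CPM at day 28. Wfdc21 fell by 5.58 ± 1.02 on the log2 scale, with no overlap between the times (adjusted p = 0.00539). In each of these the lowest day 2 library was more than 10 times the highest day 28 library. Ly6g gave 742 counts over the 3 day 2 libraries and 0 over the 3 day 28 libraries, which against a floor of 3 counts is at least 362-fold lower (adjusted p = 0.000341). Car4, a membrane carbonic anhydrase gene, gave 717 counts against 1, a ratio of 1050 (95% counting interval 188 to 41500; adjusted p = 0.0248, up to 0.111 without day 2 A or B or day 28 A or B). Such intervals cover counting error only.

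The remaining members of the 12 largest falls were Retnlg, Stfa2l1, Klk9, Asprv1, Mrgpra2a and Mrgpra2b. Mrgpra2b had 48.1, 17.8 and 37.7 CPM at day 2 and 0, 0.777 and 0 CPM at day 28. Mrgpra2b fell by 6.97 ± 1.34 on the log2 scale, with every day 28 library below day 2 (adjusted p = 0.00745). Mrgpra2a had 18.3, 4.32 and 10 CPM at day 2 and 0, 0.565 and 0 CPM at day 28. Mrgpra2a fell by 5.77 ± 1.23 on the log2 scale, with no overlap between the times (adjusted p = 0.0135, up to 0.0622 without day 2 A or day 28 A). This pair of G protein-coupled receptor genes is closely related, so how reads were split between them is uncertain, as for Chil3 and Chil4, Ly6c1 and Ly6c2 and other near-identical copies. Klk9 (log2 fold change -6.55 ± 1.40, adjusted p = 0.0172, up to 0.0705 without day 2 A or C or day 28 A or B), Asprv1 (log2 fold change -5.65 ± 1.17, adjusted p = 0.0132, up to 0.0729 without day 28 B) and Stfa2l1 (log2 fold change -6.12 ± 1.23, adjusted p = 0.0111, up to 0.0665 without day 2 A or day 28 B) had at least 1 day 28 library at 0.

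Of 17 S100, resistin-like and chitinase-like genes, 8 fell and none rose (median log2 fold change -1.6; 6, 6, 6, 5, 4 and 9 lower calls without each library). S100a8 had 3157, 1460 and 2303 CPM at day 2 and 40.4, 86.8 and 152 CPM at day 28. S100a8 fell by 4.63 ± 0.75 on the log2 scale, with every day 28 library below day 2 (adjusted p = 0.00181). Its partner S100a9 had 2897, 1253 and 1697 CPM at day 2 and 13.8, 49 and 92.9 CPM at day 28. S100a9 fell by 5.23 ± 0.77 on the log2 scale, with no overlap between the times (adjusted p = 0.000753). Together they form calprotectin, the metal-binding protein of neutrophils and young monocytes. Retnlg had 414, 167 and 241 CPM at day 2 and 1.04, 6.07 and 1.79 CPM at day 28. Retnlg fell by 6.52 ± 0.89 on the log2 scale, with every day 28 library below day 2 (adjusted p = 0.000376). The chitinase-like genes Chil3 (log2 fold change -3.04 ± 0.66, adjusted p = 0.0153, up to 0.0859 without day 28 A or B) and Chil4 (log2 fold change -3.17 ± 0.65, adjusted p = 0.0111, up to 0.0711 without day 28 B) fell too, and S100a6 and S100a10 completed the calls with Chil1. S100a8, S100a9 and Retnlg are also neutrophil markers. Of the 15 neutrophil markers 8 fell and none rose (median -3.74; 6, 8, 7, 7, 6 and 9 lower calls without each library), while Mmp9 did not pass (log2 fold change -2.14 ± 0.81, adjusted p = 0.123). Pglyrp1, a peptidoglycan-binding granule protein gene, had 65.9, 38.9 and 46.6 CPM at day 2 and 1.18, 0.953 and 1.79 CPM at day 28. Pglyrp1 fell by 5.26 ± 0.71 on the log2 scale, with no overlap between the times (adjusted p = 0.000341). The part of neutrophil RNA in these falls was not tested.

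Chemokine genes were called mostly downward, among them those that recruit monocytes. Of 27 tested, 8 fell and 1 rose (median log2 fold change -1.1, or -1.07 with genes of 3 or fewer counts at both times set to 0; 6, 7, 7, 5, 5 and 11 lower calls without each library). Ccl2, the main ligand of the monocyte receptor CCR2, had 944, 1090 and 1454 CPM at day 2 and 82, 46.6 and 201 CPM at day 28. Ccl2 fell by 3.40 ± 0.49 on the log2 scale, with every day 28 library below day 2 (adjusted p = 0.000663). Ccl7, its neighbour and fellow CCR2 ligand, had 1107, 1599 and 1874 CPM at day 2 and 128, 83.2 and 286 CPM at day 28. Ccl7 fell by 3.20 ± 0.56 on the log2 scale, with no overlap between the times (adjusted p = 0.00368). The controls held 188 and 225 CPM of Ccl2, so day 28 A and B lay below and day 28 C within the range of the tissue without implant. Ccl6, a chemokine made constitutively by mouse myeloid cells, had 15940, 24020 and 16900 CPM at day 2 and 4481, 2972 and 3970 CPM at day 28. Ccl6 fell by 2.32 ± 0.31 on the log2 scale, with every day 28 library below day 2 (adjusted p = 0.000341).

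The platelet chemokine genes Ppbp (log2 fold change -3.69 ± 0.64, adjusted p = 0.00434) and Pf4 (log2 fold change -2.71 ± 0.50, adjusted p = 0.00569) fell. The erythroid and platelet marker sum without Ppbp overlapped between the times, as given above, and the part of platelet RNA was not tested. Pf4 is expressed by tissue macrophages as well, and its controls were at 814 and 1452 CPM. Ccl8 fell (log2 fold change -2.53 ± 0.63, adjusted p = 0.029, up to 0.13 without day 2 A or B or day 28 A or B and 0.194 with the length offset), as did Ccl3 and Ccl4, which lie outside the naming rule. The only rise was Cxcl16. Among 21 chemokine receptors Cx3cr1 rose and the formyl peptide receptor gene Fpr2 fell (log2 fold change -1.87 ± 0.51, adjusted p = 0.0438, up to 0.176 without day 2 A, B or C or day 28 A or B and 0.128 with the length offset).

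Of 27 inflammatory cytokine genes, 3 fell and none rose (median log2 fold change -0.696; 0, 2, 2, 0, 0 and 6 lower calls without each library). Il6 had 42.3, 14.4 and 17.3 CPM at day 2 and 1.94, 0.565 and 2.82 CPM at day 28. Il6 fell by 3.79 ± 0.78 on the log2 scale, with no overlap between the times (adjusted p = 0.0111, up to 0.067 without day 2 A or day 28 A or B). Il1f9, which encodes interleukin-36 gamma, had 103, 73.9 and 67.2 CPM at day 2 and 3.69, 8.12 and 7.78 CPM at day 28. Il1f9 fell by 3.63 ± 0.81 on the log2 scale, with every day 28 library below day 2 (adjusted p = 0.0172, up to 0.0873 without day 2 A or day 28 A or B). Il23a gave 487 counts at day 2 and 0 at day 28, at least 237-fold lower (adjusted p = 0.0374, up to 0.126 without each of the 6 libraries). The abundant Il1b had 4820, 1741 and 2527 CPM at day 2 and 657, 534 and 2508 CPM at day 28 and did not pass (log2 fold change -1.30 ± 0.44, adjusted p = 0.0901), and day 28 C lay within the day 2 range. Tnf had 106, 69 and 55.7 CPM at day 2 and 81.8, 42.8 and 26.9 CPM at day 28. Tnf gave a log2 fold change of -0.61 ± 0.45, with overlap between the times (adjusted p = 0.426). Of 26 NF-κB feedback and target genes, Sod2 fell (log2 fold change -1.85 ± 0.44, adjusted p = 0.0233, up to 0.115 without day 2 A or day 28 A or B) and Tnip1 rose (log2 fold change 1.04 ± 0.28, adjusted p = 0.0404, up to 0.127 without day 2 A, B or C or day 28 A or B).

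Hypoxia and metal response genes were called mostly downward. Cells short of oxygen stabilise HIF factors, which bind a core of ACGTG in promoters and enhancers. Bnip3, a mitophagy receptor gene, and Ldha, which encodes lactate dehydrogenase A, are known HIF targets, and both fell. The stretches below run from 230 to 31 bases before their RefSeq start sites (GRCm38.p6, gene strand), shown because they hold the core on both strands. Capitals mark ACGTG read on either strand, which overlap to CACGTG here.
Bnip3: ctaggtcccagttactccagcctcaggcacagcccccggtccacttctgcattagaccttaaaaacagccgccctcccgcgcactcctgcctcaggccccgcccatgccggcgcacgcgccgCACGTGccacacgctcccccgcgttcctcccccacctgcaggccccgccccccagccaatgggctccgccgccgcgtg
Ldha: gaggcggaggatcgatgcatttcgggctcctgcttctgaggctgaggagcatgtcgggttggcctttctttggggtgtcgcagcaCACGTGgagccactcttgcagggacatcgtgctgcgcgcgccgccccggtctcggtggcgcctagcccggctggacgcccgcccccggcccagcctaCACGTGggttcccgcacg
The Bnip3 stretch is chr7:138909537-138909736 on the minus strand, with the match at 108 bases before the start site, and the Ldha stretch is chr7:46845574-46845773 on the plus strand, with matches at 145 and 48 bases. ACGTG on either strand was found in the 250 bases before the start of 16.6% of promoters and 24.2% of tested genes with an entry, and in 15 of 21 hypoxia list members with an entry. For 2 other lists, the lysosomal element TCACGTGA was in 4 of 43 members of the lysosomal hydrolase list with an entry, against 1.72% of tested genes. These were Ctsa, Ctsd, Gla and the channel gene Mcoln1, and none of them was called. The sterol element TCACCCCAC was in 1 of 20 sterol genes, Hmgcs1, against 0.588%.

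Of 26 hypoxia response genes tested, 6 fell and 1 rose (median log2 fold change -0.802; 3, 5, 3, 2, 1 and 9 lower calls without each library), and 13 had no overlap downward, against 15.3% of all tested genes. Against the controls with no implant, day 28 had 17 of the 26 higher and 0 lower (median 2.11). Of all 16260 tested genes, 14543 did not pass in that comparison. Controls of Bnip3 (23.3 and 24.1 CPM) and Ankrd37 (4.18 and 3.9 CPM) were below every day 28 library. For Mt1, control B (183.6 CPM) lay within the day 28 range. The metallothionein genes Mt1 and Mt2, which also respond to zinc and glucocorticoids, fell. Mt1 had 1839, 842 and 1013 CPM at day 2 and 217, 176 and 277 CPM at day 28. Mt1 fell by 2.46 ± 0.47 on the log2 scale, with every day 28 library below day 2 (adjusted p = 0.00695, up to 0.0539 without day 28 B). Mt2 had 289, 135 and 122 CPM at day 2 and 14, 11.3 and 20.6 CPM at day 28. Mt2 fell by 3.58 ± 0.70 on the log2 scale, with no overlap between the times (adjusted p = 0.00803, up to 0.0588 without day 28 B). Bnip3 had 981, 659.5 and 853 CPM at day 2 and 216, 241 and 461 CPM at day 28. Bnip3 fell by 1.44 ± 0.34 on the log2 scale, with every day 28 library below day 2 (adjusted p = 0.0236, up to 0.117 without day 2 A or C or day 28 A or B and 0.0695 with the length offset). Ankrd37 fell too (log2 fold change -1.74 ± 0.36, adjusted p = 0.0111, up to 0.0685 without day 28 A or B). Slc2a3, a glucose transporter gene outside the naming rule, had 35.5, 34.6 and 25.5 CPM at day 2 and 0.189, 6.57 and 0.241 CPM at day 28. It had the largest log2 fold change of the 6 falls, -3.76 ± 1.03 (adjusted p = 0.0434, up to 0.138 without day 2 A, B or C or day 28 A or C), and -7.16 without day 28 B. The other fall was Higd1a. Bhlhe40, a transcriptional repressor gene also used outside hypoxia, rose (log2 fold change 1.38 ± 0.32, adjusted p = 0.0204, up to 0.0966 without day 2 A, B or C or day 28 A or B). In the glycolysis list, Ldha had 5427, 4036 and 4902 CPM at day 2 and 2654, 2728 and 2729 CPM at day 28. Ldha fell by 0.82 ± 0.22 on the log2 scale, with no overlap between the times (adjusted p = 0.043, up to 0.172 without day 2 A, B or C or day 28 A, B or C and 0.0583 with the length offset). Pfkfb4, which sets the level of a glycolytic activator, had 38.8, 44.6 and 44.3 CPM at day 2 and 138, 120.5 and 85.7 CPM at day 28. Pfkfb4 rose by 1.43 ± 0.27 on the log2 scale, with every day 28 library above day 2 (adjusted p = 0.00669). These were the only calls among 24 glycolysis genes (median -0.135).

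Nuclear genes of oxidative phosphorylation were lower at day 28 in most members, and how many passed varied with the setting. Of 69 tested, 10 fell and none rose, and 58 had all day 28 libraries below day 2, against 15.3% of all tested genes (median log2 fold change -1.06). None was called without any 1 of day 2 A, B or C or day 28 A or B, and 6 were called without day 28 C. With the length offset 2 were called, with DESeq2 28, with only the groups compared 37 and with limma voom with quality weights 51. Atp5j, a stalk subunit gene of ATP synthase, had 686, 412 and 542 CPM at day 2 and 159, 159 and 216 CPM at day 28. Atp5j fell by 1.62 ± 0.41 on the log2 scale, with no overlap between the times (adjusted p = 0.0326, up to 0.129 without day 2 A, B or C or day 28 A or B). Ndufb8, of respiratory complex I, had 585, 372 and 507 CPM at day 2 and 197, 194 and 186 CPM at day 28. Ndufb8 fell by 1.34 ± 0.37 on the log2 scale, with every day 28 library below day 2 (adjusted p = 0.0434, up to 0.158 without day 2 A, B or C or day 28 A, B or C and 0.0515 with the length offset). The complex I genes Ndufa3 (log2 fold change -1.43 ± 0.39, adjusted p = 0.0434, up to 0.163 without day 2 A, B or C or day 28 A or B and 0.158 with the length offset) and Ndufb2 (log2 fold change -1.48 ± 0.39, adjusted p = 0.0356, up to 0.131 without day 2 A, B or C or day 28 A or B) and the ATP synthase gene Atp5o (log2 fold change -1.34 ± 0.35, adjusted p = 0.0341, up to 0.129 without day 2 A, B or C or day 28 A or B and 0.0527 with the length offset) were of similar size. Of 65 cytosolic ribosomal protein genes none was called, and 35 had no overlap downward, against 15.3% of all tested genes (median -0.693). The 9 tested mitochondrially encoded genes had a median of -0.106 and no call.

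Genes that mark resident tissue macrophages did not move as a block. Of 35 tested, 5 fell and 1 rose (median log2 fold change -0.086; 3, 3, 5, 3, 3 and 7 lower calls without each library). Ltc4s, which makes leukotriene C4, had 257, 396 and 137 CPM at day 2 and 8, 15 and 13.5 CPM at day 28. Ltc4s fell by 4.44 ± 0.59 on the log2 scale, with no overlap between the times (adjusted p = 0.000341). Cbr2, a carbonyl reductase gene of dermal macrophages, had 787, 1615 and 772 CPM at day 2 and 89, 66.3 and 212 CPM at day 28. Cbr2 fell by 3.11 ± 0.49 on the log2 scale, with every day 28 library below day 2 (adjusted p = 0.00164). The controls held 1454 and 2642 CPM of Cbr2. Ednrb, the endothelin B receptor gene, fell (log2 fold change -2.77 ± 0.69, adjusted p = 0.0291, up to 0.123 without day 2 A or B or day 28 A or B), along with Ccl8 and Pf4. Mgl2, a galactose lectin gene, rose (log2 fold change 1.60 ± 0.43, adjusted p = 0.0421, up to 0.152 without day 2 A, B or C or day 28 A or C). Its times overlapped, with 31.7, 26.7 and 50.9 CPM at day 2 and 115.8, 38.9 and 175.1 CPM at day 28. The controls held 728 and 1159 CPM of Mgl2. Lyve1, the hyaluronan receptor of perivascular macrophages, had 4.07, 30.5 and 14.4 CPM at day 2 and 36.8, 8.37 and 17.4 CPM at day 28 against 446 and 667 CPM in controls (log2 fold change 0.35 ± 0.80, adjusted p = 0.839). Among 19 eicosanoid genes (median 0.0868; 1, 1, 1, 1, 1 and 4 lower calls without each library), Alox5ap (log2 fold change -0.97 ± 0.23, adjusted p = 0.0254, up to 0.124 without day 2 A, B or C or day 28 A or B and 0.433 with the length offset), Ptgs1 (log2 fold change -1.82 ± 0.50, adjusted p = 0.0443, up to 0.171 without day 2 A, B or C or day 28 A, B or C), Ptges (log2 fold change -2.42 ± 0.67, adjusted p = 0.0457, up to 0.188 without day 2 A, B or C or day 28 A or B and 0.0523 with the length offset) and Ltc4s fell, and Pla2g7, which inactivates platelet-activating factor, rose (log2 fold change 1.06 ± 0.27, adjusted p = 0.0308, up to 0.12 without day 2 A or B or day 28 A or B).

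Lists that describe macrophage activation gave few calls. Of 29 alternative activation genes (median 0.218; 1, 2, 1, 1, 2 and 1 higher and 2, 2, 2, 1, 0 and 4 lower calls without each library), Mfge8 and Mgl2 rose and Chil3 and Chil4 fell. Arg1, which encodes arginase 1, had 11040, 7742 and 8900 CPM at day 2 and 2623, 2378 and 5625 CPM at day 28. Arg1 gave a log2 fold change of -1.38 ± 0.52, with no overlap between the times (adjusted p = 0.122). Of 28 classical activation genes (median -0.375; 1, 1, 1, 1, 1 and 4 lower calls without each library), Cybb, the oxidase subunit, rose (log2 fold change 1.40 ± 0.30, adjusted p = 0.0147, up to 0.0909 without day 2 B or day 28 A or B) and Saa3 and Il23a fell. Nos2, inducible nitric oxide synthase, had 108, 70 and 65.6 CPM at day 2 and 9.7, 9.78 and 88 CPM at day 28, where day 28 C lay within the day 2 range. Nos2 gave a log2 fold change of -1.18 ± 0.84, with overlap between the times (adjusted p = 0.413). Of 49 interferon-stimulated genes (median -0.225) only Ifitm3 was called, lower (log2 fold change -1.89 ± 0.42, adjusted p = 0.0172, up to 0.097 without day 2 A or day 28 A or B and 0.0542 with the length offset). Of 25 oxidant defence genes (1, 1, 1, 1, 1 and 2 lower calls without each library), the peroxidases Gpx1 (log2 fold change -1.72 ± 0.33, adjusted p = 0.00792) and Gpx4 (log2 fold change -1.25 ± 0.33, adjusted p = 0.0368, up to 0.133 without day 2 A, B or C or day 28 A, B or C and 0.0988 with the length offset) fell.

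Of 50 cell cycle genes (median -0.2; 1, 0, 1, 1, 0 and 4 higher calls without each library), Bub1b (log2 fold change 2.93 ± 0.61, adjusted p = 0.0118, up to 0.0774 without day 2 B or C or day 28 B) and Mcm2 (log2 fold change 1.63 ± 0.45, adjusted p = 0.0434, up to 0.173 without day 2 A or B or day 28 A or B and 0.0756 with the length offset) rose and Hmgb2 fell (log2 fold change -1.17 ± 0.26, adjusted p = 0.0172, up to 0.0957 without day 2 A or C or day 28 A or B). Of 21 costimulation and checkpoint genes (1, 1, 1, 1, 1 and 4 higher calls without each library), Havcr2 (log2 fold change 1.53 ± 0.39, adjusted p = 0.0317, up to 0.114 without day 2 A, B or C or day 28 A, B or C), Il10ra and Sirpa rose and Lgals9 fell (log2 fold change -0.98 ± 0.25, adjusted p = 0.0317, up to 0.142 without day 2 A, B or C or day 28 A or B and 0.134 with the length offset). The class I list had 1 rise, Erap1 (log2 fold change 1.64 ± 0.33, adjusted p = 0.0104, up to 0.0672 without day 2 A or B), among 20. No call was made among 15 heat shock genes or 18 arginine and polyamine genes. In the marker lists of other cells, the T cell receptor gene Trac had 2.46, 1.65 and 33.9 CPM at day 2 and 0.237, 0.0353 and 0 CPM at day 28, highest in day 2 C. Trac fell by 7.16 ± 1.81 on the log2 scale, with no overlap between the times (adjusted p = 0.0317, up to 0.158 without day 2 A or C or day 28 A, B or C and 0.0636 with the length offset). Trbc2 (log2 fold change -5.79 ± 1.37, adjusted p = 0.0236, up to 0.138 without day 2 C or day 28 A or B and 0.0538 with the length offset) and Nkg7, with 143 counts at day 2 and 0 at day 28 (at least 69.7-fold lower; adjusted p = 0.0332, up to 0.12 without day 2 A or C or day 28 A, B or C and 0.0506 with the length offset), were the other calls among 13 T and NK cell markers (1, 3, 0, 0, 0 and 1 lower calls without each library). Igkc of B cells was lower (log2 fold change -4.38 ± 1.03, adjusted p = 0.0231, up to 0.244 without day 2 C or day 28 B and 0.106 with the length offset). Postn of fibroblasts gave 1 count at day 2 and 443 at day 28, a ratio of 303 (95% counting interval 54.1 to 12000; adjusted p = 0.0248, up to 0.119 without day 2 A, B or C or day 28 B). The muscle gene Tnnt3 gave 2 against 360 counts, a ratio of 123 (33.8 to 1020; adjusted p = 0.0231, up to 0.11 without day 2 A, B or C), and the endothelial gene Egfl7 gave 85 against 0, at least 41.4-fold lower (adjusted p = 0.0344, up to 0.118 without day 2 A, B or C or day 28 A, B or C).

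Day 28 C stood apart from day 28 A and B in the genes that changed. It was the lowest of the 3 day 28 libraries for 267 of the 371 genes called higher (72%), against 32.6% of all tested genes. It was the highest for 186 of the 321 genes called lower (57.9%), against 38.1% of all tested genes. In the lysosomal list it was lowest for 37 of 53 members (69.8%), in the lipid-associated list for 21 of 29 (72.4%) and in the sterol list for 20 of 30 (66.7%). Neutrophil markers were highest in C for 9 of 15 members. In the class II list the order was the reverse, as given above. Its length slope of 0.0471 was the lowest of the 3 as well. Without day 28 C, 14 genes of the lysosomal hydrolase list were called higher and 11 chemokines lower.

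**Figure D5:**
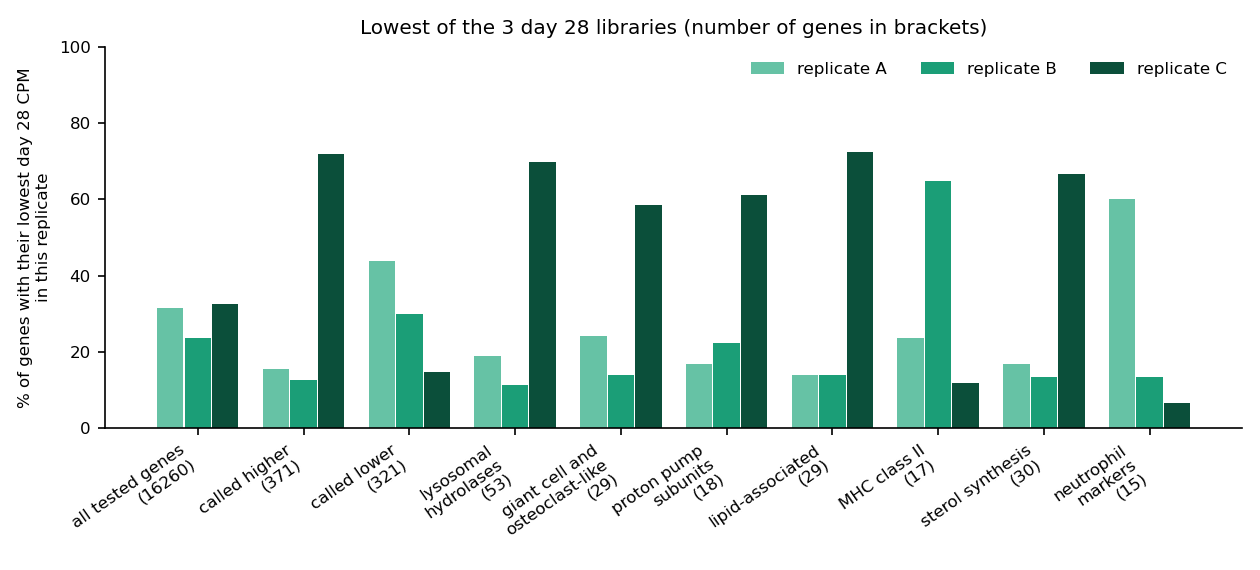
Share of genes whose lowest day 28 CPM was in replicate A, B or C, for all tested genes, the called genes and the gene lists named on the axis, with the number of genes in brackets. Replicate C is lowest for 72% of genes called higher and for 11.8% of the class II list.

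Macrophages at day 14 place these changes in time. Against day 2, day 14 had 32 genes higher (0.197%) and 45 lower (0.277%), and day 28 against day 14 had 1 gene called (0.00615%), with 1420 at an unadjusted p under 0.05. DESeq2 called 4 genes higher and 19 lower between day 14 and day 28. The 3 comparisons share libraries, so their values stand side by side. For Axl, day 14 held 195, 164 and 89 CPM (log2 fold change 3.82 ± 0.58, adjusted p = 0.00201 against day 2). Saa3 was at 34.5, 21.8 and 50.2 CPM at day 14 (log2 fold change -6.39 ± 1.00, adjusted p = 0.00273), which overlapped its day 28 range. For Lipa (536, 397 and 486 CPM), Tgfbr1 (63.3, 77 and 48 CPM) and Cx3cr1 (61.1, 52.4 and 84.9 CPM), the day 14 libraries lay above every day 2 library and below every day 28 library, and none of these passed between day 14 and day 2 or between day 28 and day 14. Cd74 was already at 12190, 12670 and 7922 CPM (log2 fold change 2.31 ± 0.39, adjusted p = 0.00549). The 1 gene called between day 14 and day 28 was the zinc finger gene Zfp169, below the level the naming rule asks for, at 0.335, 0.31 and 0.404 CPM at day 14 and 7.29, 7.87 and 2.51 CPM at day 28 (log2 fold change 4.05 ± 0.62, adjusted p = 0.0341). That call ended without day 14 A, B or C or day 28 A or B.

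Ly6C-high monocytes from implants of the same days changed over the same span in 63 genes higher (0.387%) and 78 lower (0.48%). Axl rose in them by 3.47 ± 0.57 on the log2 scale (adjusted p = 0.0061), Itgax by 3.09 ± 0.71 (adjusted p = 0.0383), Cd276 by 3.25 ± 0.48 (adjusted p = 0.00482) and Tgfbr1 by 2.04 ± 0.44 (adjusted p = 0.0282). Their log2 fold change was -4.54 ± 0.75 for Lcn2 (adjusted p = 0.0061), -5.69 ± 0.85 for Retnlg (adjusted p = 0.00482) and -1.70 ± 0.30 for Ccl6 (adjusted p = 0.00907). Lipa (0.68 ± 0.33, adjusted p = 0.339), Ciita (1.04 ± 0.48, adjusted p = 0.307) and Ltc4s (-1.31 ± 0.56, adjusted p = 0.263) did not pass in monocytes. The test of the difference itself, the change in macrophages less the change in monocytes, called 0 genes (0%), with 2053 at an unadjusted p under 0.05. For Mfge8 that difference was 3.05 ± 0.78 (adjusted p = 0.154) and for Ltc4s -3.13 ± 0.77 (adjusted p = 0.141). DESeq2 called 132 genes with a larger log2 change in macrophages and 120 with a smaller one, limma voom 147 and 371, and edgeR without day 28 C 153 and 277.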

How the data were processed

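RNA was measured in 23 libraries of sorted mouse cells in 8 groups. Per the labels' protocols, SMART-Seq v4 and Nextera XT libraries were read from 1 end for 75 bases. Per the submitters' processing notes, bcl2fastq, STAR 2.4.1d, featureCounts, Subread 1.5.1 and GRCm38 were used. Not given in the sources used here are the annotation release used for counting, its strand option and its treatment of multi-mapping reads. The authors' deposited table holds whole-number read counts for 47729 entries. Symbols, positions and exon lengths came from GENCODE M21. Of the entries, 47310 had a symbol, and the others held 0.095% of the counts. Library totals were 9303153 to 32994092 counts, 20566 entries were 0 throughout, and 0 pairs of libraries were identical.

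The test was edgeR 4.0.16 (R 4.3.3, limma 3.58.1) with filterByExpr by group, TMM scaling and a robust quasi-likelihood model over all 23 libraries, with no covariate. A gene was called when its Benjamini-Hochberg adjusted p over 16260 tested genes was under 0.05. The prior count was 0.125, and each SE is the size of the log2 fold change divided by the root of its F value. A group with 0 counts was set to a floor of 3 counts over its libraries to give a bound, and for 1 to 3 counts an exact 95% interval of the ratio is given. The method was tested on simulated data. Promoter sequences came from RefSeq (GRCm38.p6).

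The text names the 12 largest rises and falls among called genes with at least 10 CPM in the higher group and no overlap, and up to 5 members of each list with the smallest adjusted p. Predicted and unnamed genes, receptor segments, histone, mitochondrially encoded and sex-linked genes were left out of the first part. Genes outside the rule (Acp5, Adgre1, Il1b, Lyve1, Mmp9, Nos2, Ocstamp, Slc2a3, Spp1, Tgfb1, Tnf, Trem2, Zfp169 and calls named without a value) were chosen after their values were seen. Values of some genes that the rule names are not reported here. The 56 lists and the comparison itself were chosen with earlier results of these data known. Alternatives were RLE scaling, DESeq2 1.42.0, limma voom with quality weights, no filter on low counts, other sets of libraries, a replicate block, thinned counts, a prior count of 2, an exon length offset and leaving out each library. Limma voom and voom stand for the setting with quality weights, which gives each library its own weight. Leaving out day 14 and monocyte libraries, and Lyz2 or Ppbp from marker sums, was added after the data were seen. Figures were drawn with matplotlib 3.10.9 in Python 3.11.15.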

Additional observations from a re-analysis of the deposited data

How the results depend on the processing

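Directions of the 131 called genes named by the rule held in all 16 alternatives run, and counts of calls did not. In macrophages between day 2 and day 28 (371 higher, 321 lower), the counts were 1048 and 633 with no low count filter, 845 and 835 with DESeq2, and 1457 and 1540 with limma voom. The exon length offset gave 280 and 210. Leaving out 1 library gave 67 to 724 higher and 64 to 509 lower. Between day 2 and day 14 (32 and 45) they were 450 and 232 with no filter, 133 and 170 with DESeq2, 261 and 424 with voom, and 55 and 90 with only these groups. With the 11 macrophage libraries 19 were higher, with thinned counts 49, and without 1 library 8 to 60 were higher and 19 to 48 lower. Between day 14 and day 28 (1 and 0) they were 68 and 184 with no filter, 4 and 19 with DESeq2, and 26 and 53 with voom. The 1 call was lost, leaving 0, with only these groups, the 11 macrophage libraries or the length offset, and leaving out 1 library gave 0 to 2 higher and 0 to 22 lower. In monocytes (63 and 78) they were 893 and 196 with no filter, 424 and 316 with DESeq2, 378 and 254 with voom, and 6 and 12 with only these groups. With thinned counts 95 were higher, and without 1 library 15 to 69 were higher and 28 to 50 lower. For the difference between the cell types (0 and 0) they were 184 and 493 with no filter, 132 and 120 with DESeq2, 147 and 371 with voom, 6 and 3 with thinned counts and 5 and 1 with the length offset. Leaving out 1 library gave 0 to 153 and 0 to 277 there. The cause of these differences was not tested, and the counts with fewer libraries come from smaller fits.

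A replicate block, with the letter as a factor, gave 209 higher and 188 lower in the main comparison, 26 and 40 between day 2 and day 14, 0 and 0 between day 14 and day 28, 49 and 53 in monocytes and 0 and 0 for the difference. Deviations of same-letter libraries at day 2 and day 28 correlated at -0.0296 (A), 0.0157 (B) and -0.0396 (C) across genes, and not every library correlated best with its own letter, so the letters are not read as pairs. The median log2 fold change of all genes was 0.0407 in the main test, -0.136 with voom, 0.117 with the length offset and 0.129 with only the groups compared. Depth limits day 2 C most, where 3 counts correspond to 0.322 CPM.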
